A study of Mus musculus with 4 samples.

Results

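The enzymes that turn arachidonic acid into prostanoids and leukotrienes were followed across the immune cells of the mouse dura mater and brain. The 10 genes were Ptgs1, Ptgs2, Ptges, Hpgds and Tbxas1 of the prostanoid branch and Alox5, Alox5ap, Lta4h, Ltc4s and Alox15 of the lipoxygenase branch, chosen by name out of 19491 genes listed in at least one of the 4 expression matrices, and all 10 were listed in every matrix. Adult C57BL/6J mice, which the study's methods put at 8 to 10 weeks of age at injury, received photothrombotic injury (PTI), in which an injected dye is activated by light through the skull, or a sham operation. CD45+ cells, that is leukocytes and microglia, were released with enzymes, sorted from the brain and from the dura mater on day 3 and profiled with a droplet method that reads the 3' end of each transcript and counts molecules by unique molecular identifiers (UMIs). One library was made for each of sham brain (brain S3), PTI brain (brain D3), sham dura mater (dura mater S3) and PTI dura mater (dura mater D3), the labels mark the sham libraries only as control, and the number of animals behind a library is not given in the sources used here. There was therefore 1 library per condition, no replicate and no test, every difference between S3 and D3 compares 2 libraries and not the conditions, and all intervals in parentheses are exact 95% intervals that cover counting error only.

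Eicosanoid synthesis starts when phospholipases free arachidonic acid from membranes. The cyclooxygenases encoded by Ptgs1, which is present in many cells at rest, and Ptgs2, which is induced by inflammatory stimuli, convert it to prostaglandin H2, from which terminal synthases make prostaglandin E2 (Ptges), prostaglandin D2 (Hpgds) or thromboxane A2 (Tbxas1). In the other branch Alox5 (5-lipoxygenase), helped by its activating protein Alox5ap, makes leukotriene A4, which Lta4h hydrolyses to leukotriene B4, an attractant for neutrophils, and Ltc4s conjugates to glutathione to give leukotriene C4. Alox15 oxygenates arachidonic acid at another carbon and, in mice, marks eosinophils and some resident macrophages. A cell needs only part of the pathway, since intermediates can pass between neighbouring cells.

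The deposited matrices held 18969 barcodes, of which 14058 were kept (3618 of brain S3, 4426 of brain D3, 3425 of dura mater S3 and 2589 of dura mater D3), with a median of 8249 to 14248.5 UMIs per cell in the 4 libraries, the D3 libraries being the deeper, and 37 barcodes were present in more than one library. Cells fell into 29 clusters, named "-like" from fixed markers, and the pathway's genes had no part in the clustering. The unit of level is UMIs of a gene per 1000000 UMIs of a class in a library (CPM), shown only for the 80 classes of a library with at least 20 cells. No cluster was named from the eosinophil or basophil markers. One unnamed cluster, led by Cxcl3, Cxcl2, Acod1 and Siglecf, held 138 cells of brain D3 and 3, 10 and 6 cells of brain S3, dura mater S3 and dura mater D3, with 13 of 14 granulocyte markers in at least 10% of its brain D3 cells, a summed granulocyte-marker level of 35932 CPM against 280552 in granulocyte-like cells, and a median of 3008 UMIs per cell, and is called the Siglecf cluster here. As the measure of free RNA, T-like cells are given beside the results, and in them the summed level of 14 granulocyte markers went from 293 CPM in brain S3 to 2979.8 in brain D3.

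Both cyclooxygenase genes and 2 of the terminal synthase genes are shown by the sequence before their starts, and no link of these sequences to the levels was tested. The windows are the 250 bases upstream of the RefSeq start in GRCm38.p6, written 5' to 3' on the gene's strand, and 8 of the 10 genes had such a window. Capitals mark matches to 6 short motifs searched on both strands, namely CACGTG (E-box), TGACGT (cAMP response element core), TTGCGCAA (C/EBP type), GAGGAAGT (ETS type), GGGCGG (GC box) and TATAAA (a core promoter element).
Ptgs2, chr1:150099781-150100030, plus strand: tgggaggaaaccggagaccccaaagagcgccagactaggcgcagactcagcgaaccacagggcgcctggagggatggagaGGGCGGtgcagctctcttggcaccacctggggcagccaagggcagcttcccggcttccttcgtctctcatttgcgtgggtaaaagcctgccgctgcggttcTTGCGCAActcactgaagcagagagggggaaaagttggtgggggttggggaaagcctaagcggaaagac
Ptgs1, chr2:36230176-36230425, plus strand: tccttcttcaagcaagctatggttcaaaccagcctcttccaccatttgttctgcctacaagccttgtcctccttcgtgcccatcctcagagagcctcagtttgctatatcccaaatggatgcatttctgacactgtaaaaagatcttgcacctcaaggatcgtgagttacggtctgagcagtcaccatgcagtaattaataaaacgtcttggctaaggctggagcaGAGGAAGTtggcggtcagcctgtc
Hpgds, chr6:65144731-65144980, minus strand: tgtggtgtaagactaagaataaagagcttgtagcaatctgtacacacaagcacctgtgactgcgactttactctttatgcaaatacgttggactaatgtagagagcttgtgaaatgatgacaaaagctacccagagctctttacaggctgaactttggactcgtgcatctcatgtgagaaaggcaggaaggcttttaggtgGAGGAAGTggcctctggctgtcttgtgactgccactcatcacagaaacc
Ltc4s, chr11:50238533-50238782, minus strand: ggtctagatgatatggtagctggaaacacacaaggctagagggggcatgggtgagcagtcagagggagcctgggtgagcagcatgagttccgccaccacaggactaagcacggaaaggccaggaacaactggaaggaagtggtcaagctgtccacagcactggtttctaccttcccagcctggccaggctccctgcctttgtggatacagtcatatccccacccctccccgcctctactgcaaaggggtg
The Ptgs2 window held the C/EBP-type motif at bases -69 to -62 from the start, a motif present in 0.164% of 32851 windows of the same length, and a GC box at -170 to -165, present in 32.7%. Ptgs1 and Hpgds each held the ETS-type motif, at -24 to -17 and at -49 to -42, which 2.44% of the windows hold. None of the 6 motifs was found in the Ltc4s or Lta4h window. Among the other members, Ptges held 2 GC boxes, Alox5 had 1 and Tbxas1 had overlapping TATAAA matches on both strands (12.4% of windows), and the E-box (6.02% of windows) and the cAMP response element core (6.47%) were in no member's window. In GENCODE vM21 (GRCm38) the genes span chr1:150100031-150108227 (Ptgs2), chr2:36230426-36252272 (Ptgs1), chr2:30889471-30929863 (Ptges), chr6:65117293-65144908 (Hpgds), chr6:38875404-39084585 (Tbxas1), chr6:116410077-116461178 (Alox5), chr5:149264767-149288153 (Alox5ap), chr10:93453411-93484875 (Lta4h), chr11:50236461-50238616 (Ltc4s) and chr11:70344152-70352031 (Alox15), and all are annotated as protein coding. The windows follow the RefSeq starts, and those of Hpgds and Ltc4s reach into these spans. The Hpgds motif lies within its span, and the Ptges and Tbxas1 windows lie wholly inside theirs.

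The members differed in how widely they were found, and they overlapped in some classes. Microglia-like cells, for one, had 5 of the 10 at 50 CPM or more in brain S3 and 6 in brain D3. Alox5ap was the most widely found, at 50 CPM or more in 57 of the 80 classes, followed by Ptgs2 in 45 and Lta4h in 33. Ptgs1 and Tbxas1 reached that level in 21 classes each, Alox5 and Hpgds in 19, Ltc4s in 16 and Ptges and Alox15 in none.

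**Figure D1:**
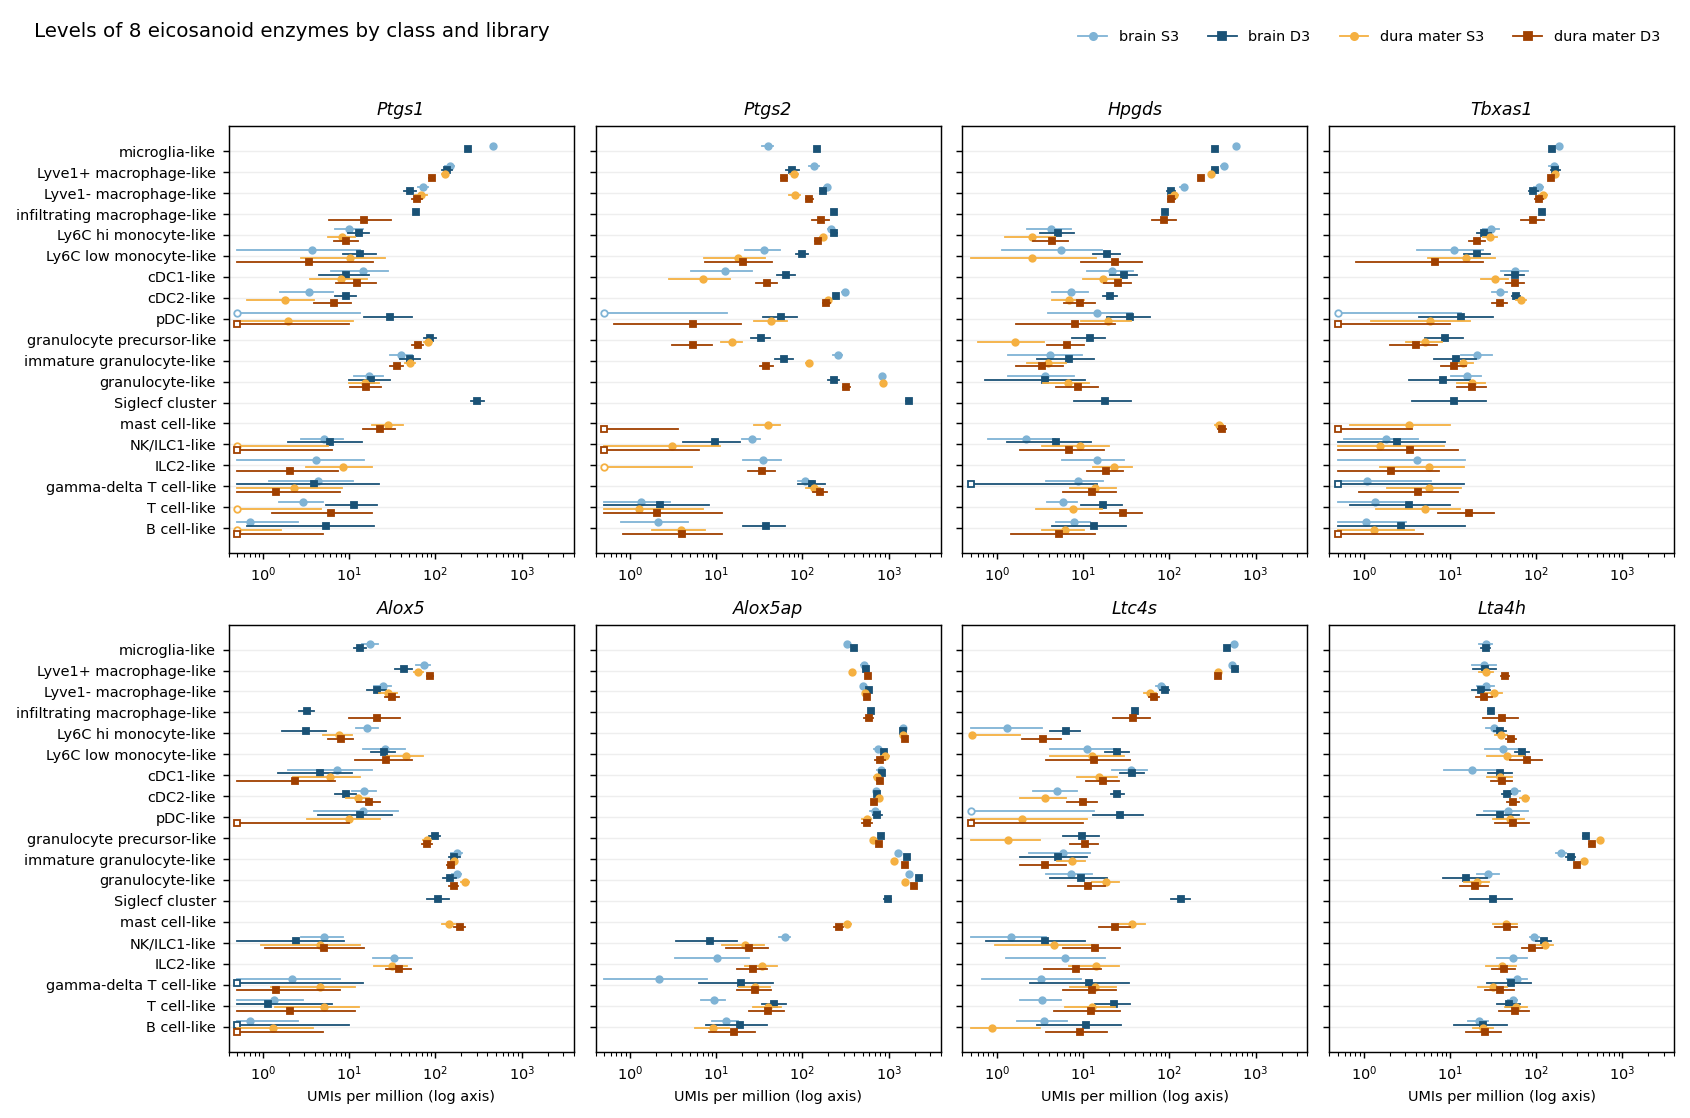
Level of 8 members in CPM (log axis) by class, with 1 point per library and bars for the 95% counting interval. Open points drawn at the left edge are at 0 UMIs. Ptgs1, Hpgds, Tbxas1 and Ltc4s are high in microglia-like and Lyve1+ macrophage-like cells, joined by the Siglecf cluster for Ptgs1 and by mast cell-like cells for Hpgds. Ptgs2 is highest in the Siglecf cluster and, in the S3 libraries, in granulocyte-like cells, which in brain D3 do not stand above the other myeloid classes. Alox5ap is highest in granulocyte-like cells and Lta4h in granulocyte precursor-like cells.

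Ptgs1 was highest in the microglia-like cells of the sham brain. Its level in microglia-like cells was 468 (449 to 487) CPM, with a UMI in 98.4% of cells, against 146 (128 to 166) CPM in Lyve1+ macrophage-like cells, the border-associated macrophages that carry the hyaluronan receptor Lyve1, and 71.7 (62.5 to 81.9) in Lyve1- macrophage-like cells. T-like cells, which served as the background, had 2.9 CPM and a UMI in 2.22% of cells. In the dura mater Lyve1+ macrophage-like cells had 128 (118 to 139) CPM at S3 and 90.8 (84.6 to 97.3) at D3. Granulocyte precursor-like cells also held the gene, at 82.4 CPM in dura mater S3, 62.4 in dura mater D3 and 86.8 in brain D3, and the level was lower in immature granulocyte-like cells (51.0 CPM in dura mater S3) and lower again in granulocyte-like cells (15.1).

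Ptgs2 was high in granulocyte-like cells of the sham libraries, while Ptgs1 was high in microglia-like cells. Both genes reached 50 CPM in Lyve1+ and Lyve1- macrophage-like cells of both sham libraries and in immature granulocyte-like cells of dura mater S3. Granulocyte-like cells had 828 (784 to 873) CPM in brain S3 and 851 (809 to 895) in dura mater S3, with a UMI in 75.7% and 71.3% of cells, while microglia-like cells had 39.5 (34.2 to 45.4). Thinned to 2000 UMIs per cell, the shares were 61.7% and 57.5% of granulocyte-like cells and 1.87% of microglia-like cells, beside 0.342% of T-like cells in brain S3, whose median depth was 7160 UMIs. Type 2 conventional dendritic cell-like (cDC2-like) cells had 309 CPM at S3 and 246 at D3 in the brain and 196 and 189.6 in the dura mater. Ly6C hi monocyte-like cells had 214 at S3 and 234 at D3 in the brain and 174 at S3 and 150.3 at D3 in the dura mater. Gamma-delta T-like cells, lymphocytes of an innate kind, had 108 at S3 and 129.6 at D3 in the brain and 135 at S3 and 161 at D3 in the dura mater, with a UMI in 15.6% to 23.5% of cells. T-like cells of the same libraries had 1.28 to 2.26 CPM, and the intervals of these 2 classes did not overlap in any library.

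The Ptgs2 molecules were held by few cells. The richest 52 of 329 granulocyte-like cells in brain S3 held 50% of its UMIs, as did the richest 46 of 341 in dura mater S3. Among microglia-like cells of brain S3 the corresponding number was 3 of 427, and a single cell held 49 of the 198 UMIs. In Lyve1+ macrophage-like cells of dura mater D3 it was 13 of 543. Alox5ap was spread evenly by comparison, with 91 of 329 granulocyte-like cells of brain S3 holding 50% of its UMIs.

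Hpgds, the haematopoietic synthase of prostaglandin D2, was highest in microglia-like, Lyve1+ macrophage-like and mast cell-like cells. Microglia-like cells had 591 (570.0 to 613) CPM at S3 and 342 (331 to 353) at D3. Lyve1+ macrophage-like cells had 429.5 at S3 and 342 at D3 in the brain and 302 at S3 and 232 at D3 in the dura mater, and Lyve1- macrophage-like cells had 146 at S3 and 105 at D3 in the brain and 113 at S3 and 106 at D3 in the dura mater. Mast cell-like cells, found in the dura mater, had 381 (341 to 424) CPM at S3 and 408 (369 to 449) at D3, and 87.3% and 91.4% of them carried a UMI. Granulocyte-like cells had at most 8.79 CPM, which lay under the 29.1 of T-like cells of the same library.

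Tbxas1, thromboxane synthase, was found in microglia-like and macrophage-like cells. It stood at 185 CPM at S3 and 151 at D3 in microglia-like cells and at 160.3 at S3 and 166 at D3 in the brain and 165 at S3 and 149 at D3 in the dura mater in Lyve1+ macrophage-like cells. Lyve1- macrophage-like cells had 92.4 to 120.3 CPM, infiltrating macrophage-like cells of brain D3 had 117, and T-like cells had 1.34 to 16.6. Ptges, the inducible prostaglandin E2 synthase, was nearly silent in CD45+ cells, at 0 UMIs in 44 of the 80 classes. Its highest levels were 34.2 (12.6 to 74.5) CPM in the 24 endothelial-like cells of brain D3, from 6 UMIs, and 25.9 (8.4 to 60.3) in the 20 of brain S3. Among leukocytes, immature granulocyte-like cells came first, with 9.15 at S3 and 4.25 at D3 in the brain and 6.66 at S3 and 5.73 at D3 in the dura mater.

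Alox5 and Alox5ap work together, and granulocyte-like cells had both. Alox5 stood at 177 at S3 and 146 at D3 in the brain and 219.5 at S3 and 162 at D3 in the dura mater in these cells. It stood at 142 CPM at S3 and 192 at D3 in mast cell-like cells of the dura mater and at 72.8 at S3 and 42.9 at D3 in the brain and 63.2 at S3 and 86.4 at D3 in the dura mater in Lyve1+ macrophage-like cells. Alox5ap was at 1713 at S3 and 2233 at D3 in the brain and 1533 at S3 and 1981 at D3 in the dura mater in granulocyte-like cells, with a UMI in at least 98.5% of them in each library. Ly6C hi monocyte-like cells carried Alox5ap with little Alox5. Their Alox5ap was 1473 at S3 and 1462 at D3 in the brain and 1465 at S3 and 1563 at D3 in the dura mater, while their Alox5 was 3.15 to 16.2 CPM. The same held for type 1 conventional dendritic cell-like (cDC1-like) cells, with 739 to 835 CPM of Alox5ap and 2.33 to 7.18 of Alox5. Lymphocyte-like classes had little of either, and T-like cells had 9.38 CPM of Alox5ap in brain S3 and 47.5 in brain D3.

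Ltc4s had the largest ratio of the 8 measured members between the macrophage-like classes of both sham libraries. Lyve1+ macrophage-like cells had 536 at S3 and 584 at D3 in the brain and 369 at S3 and 363 at D3 in the dura mater, and Lyve1- macrophage-like cells had 79.7 at S3 and 88.7 at D3 in the brain and 59.5 at S3 and 67.1 at D3 in the dura mater. Microglia-like cells had 568 (547 to 589) CPM at S3 and 468 (456 to 482) at D3. In brain S3 the log2 ratio of Lyve1+ over Lyve1- macrophage-like cells was 2.75 (2.54 to 2.96) for Ltc4s, 1.57 (1.14 to 2.01) for Alox5, 1.55 (1.38 to 1.73) for Hpgds and 1.03 for Ptgs1, and these 4 of 8 members measured with 10 UMIs or more were past 2-fold, where 23.7% of 10601 genes were. In dura mater S3 the ratio was 2.63 (2.39 to 2.89) for Ltc4s, 1.42 (1.24 to 1.62) for Hpgds and 1.17 (0.78 to 1.57) for Alox5, 3 of 8 members, with 18.8% of all genes past 2-fold. The 14 granulocyte markers summed to 32926 CPM in the Lyve1+ and 1600.4 in the Lyve1- class of brain S3 and to 9199 and 789 in those of dura mater S3, none of the 14 at 0, and their part in the Alox5 ratio was not tested. Microglia-like cells against Lyve1+ macrophage-like cells of brain S3 had more Ptgs1, by 1.68 (1.48 to 1.88), and less Ptgs2, by -1.78 (-2.07 to -1.50), and less Alox5, by -2.05 (-2.47 to -1.64), 3 of 8 members against 24.2% of all genes, and their Ltc4s ratio was 0.08 (-0.03 to 0.19).

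Lta4h, which makes leukotriene B4, was the one member with UMIs in each of the 80 classes, from 9.87 CPM upward, with a median of 44.7 CPM. It stood out in granulocyte precursor-like cells, with 548 (524 to 572) CPM in dura mater S3, 438 (414 to 464) in dura mater D3 and 374 (347 to 402) in brain D3. NK/ILC1-like cells, the natural killer and type 1 innate lymphoid cells, were next among the named classes without granulocyte markers, with 95.2 at S3 and 122 at D3 in the brain and 127 at S3 and 90.2 at D3 in the dura mater. Macrophage-like and microglia-like classes lay between 23.0 and 43.6 CPM.

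Over the granulocyte-like classes the members ran in opposite directions. From granulocyte precursor-like to immature granulocyte-like to granulocyte-like cells of dura mater S3, Lta4h was 548, 358 and 20.7 CPM, Ptgs1 was 82.4, 51.0 and 15.1, Alox5ap was 651, 1166 and 1533, and Ptgs2 was 15.3, 119.6 and 851. Lta4h and Ptgs1 were lower and Alox5ap and Ptgs2 higher at each step of this order, with intervals that did not overlap at either step, in all 3 libraries that held the 3 classes. Granulocyte-like against immature granulocyte-like cells of dura mater S3 had 5 of 9 members past 2-fold, where 29.6% of 8770 genes were, with log2 ratios of -4.11 (-4.63 to -3.64) for Lta4h, 2.83 (2.68 to 2.98) for Ptgs2, -1.76 (-2.39 to -1.18) for Ptgs1 and 1.32 (0.56 to 2.08) for Ltc4s and with Ptges at 0 against 27 UMIs. Immature granulocyte-like against granulocyte precursor-like cells also had 5 of 9 past 2-fold, against 46.8% of all genes, led by Ptgs2 with 2.97 (2.57 to 3.39) and Ltc4s with 2.44 (1.06 to 4.16), the latter from 30 against 5 UMIs. Tbxas1 (1.46), Hpgds (1.27, from 16 against 6 UMIs) and Alox5 (1.02) were the other 3. A UMI of Alox5, Alox5ap and Lta4h, the enzymes that leukotriene B4 needs, was found together in 77.5% of granulocyte precursor-like cells, 61.8% of immature granulocyte-like cells and 4.11% of granulocyte-like cells of dura mater S3, and in 84.7%, 74.2% and 6.19% of those of dura mater D3. Thinned to 2000 UMIs per cell the shares of dura mater S3 were 10.0%, 10.5% and 0 of 341 cells, which by 3 counts allows up to 0.880% of thinned cells to carry a UMI of all 3, not of cells that express them. No order of the first 2 classes is read, since it turned with the depth per cell, and in dura mater D3 the thinned shares were 2.78%, 6.74% and 1.55%, from few cells.

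**Figure D2:**
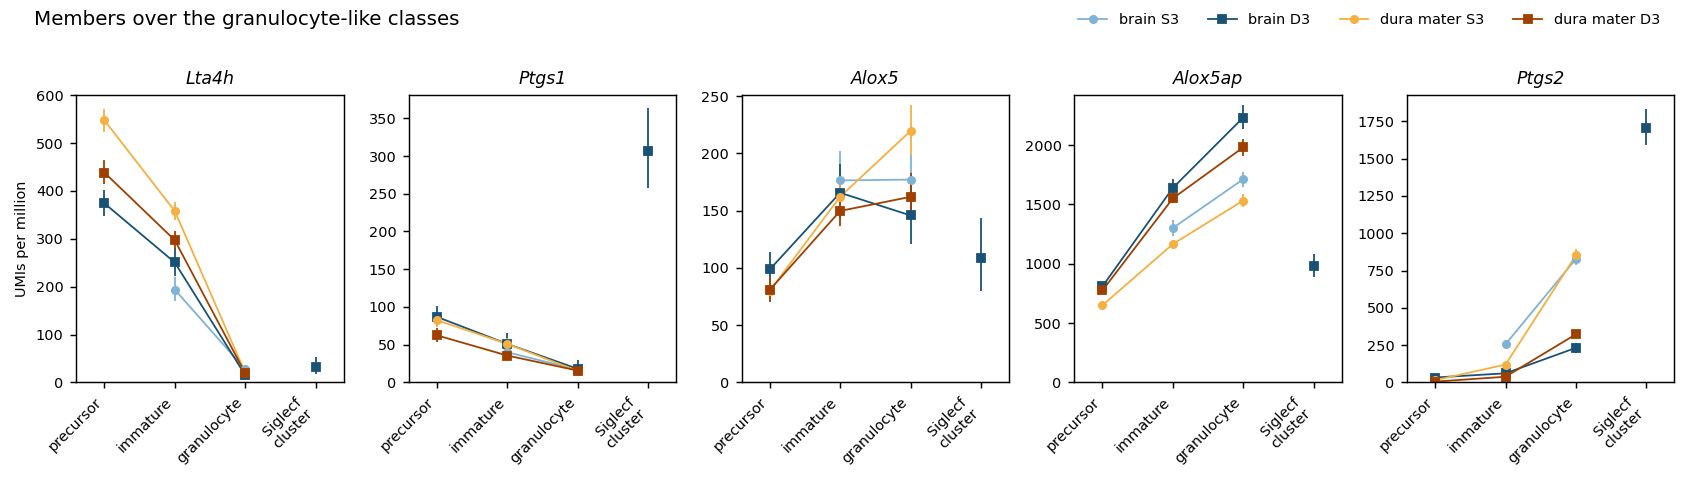
Level of 5 members in CPM over granulocyte precursor-like, immature granulocyte-like and granulocyte-like cells, joined by lines for each library, and in the Siglecf cluster of brain D3, with bars for the 95% counting interval. Lta4h and Ptgs1 go down and Alox5ap and Ptgs2 go up along the line, Ptgs2 of granulocyte-like cells is lower at D3 in both tissues, and the Siglecf cluster has the highest Ptgs1 and Ptgs2.

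Whether PTI altered the members within a class was compared next, between the S3 and D3 libraries of the same tissue. Of 9 such comparisons that were planned, Ptgs2 was past 2-fold in 4 and no other member in more than 2. The other classes were compared afterwards and are not in this count. Here and above, a gene counted as measured with 10 UMIs or more in the 2 groups together.

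In granulocyte-like cells Ptgs2 was lower at D3 in both tissues. It went from 828 (784 to 873) to 232 (200.4 to 267) CPM in the brain, a log2 ratio of -1.84 (-2.06 to -1.62), and from 851 (809 to 895) to 323 (296 to 352) in the dura mater, a ratio of -1.40 (-1.55 to -1.25). The share of cells with a UMI, thinned to 2000 UMIs per cell, went from 61.7% to 29.0% in the brain and from 57.5% to 35.6% in the dura mater. Immature granulocyte-like cells had the same direction, with 256 and 61.2 CPM in the brain and 119.6 and 38.3 in the dura mater. Alox5ap was slightly higher at D3, from 1713 to 2233 CPM in the brain (0.38, interval 0.30 to 0.47, but -0.07 in gated cells) and from 1533 to 1981 in the dura mater (0.37, interval 0.30 to 0.44). Alox5 was -0.28 (-0.60 to 0.03) and -0.44 (-0.67 to -0.21). Ptgs2 was the only one of 7 measured members past 2-fold in the brain and of 8 in the dura mater, against 15.4% and 16.6% of all genes, and the members' median was -0.28 and -0.03 beside -0.19 and -0.06 over all genes.

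Other measurements stand beside the Ptgs2 result of granulocyte-like cells. A list of 12 early-response genes that rise when tissue is dissociated, chosen after values were seen, summed to 11405 CPM at S3 and 6736 at D3 in granulocyte-like cells of the brain and to 11202 and 7647 in the dura mater, and its part in the result was not tested. When the Siglecf cluster was counted with granulocyte-like cells, the brain ratio became -0.16 and that of the dura mater -1.24, and with cells gated one by one on markers instead of clustered the brain ratio was -0.44, so the brain result depends on which cells are called granulocyte-like.

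The Siglecf cluster of brain D3 had the highest Ptgs2 of all 80 classes, 1709 (1589 to 1835) CPM with a UMI in 66.7% of cells, and the second highest Ptgs1, 307 (258 to 363). Granulocyte-like cells of the same library had 232 (200.4 to 267) and 17.9 (10.0 to 29.6). The log2 ratio between both was 4.10 (3.32 to 4.97) for Ptgs1, 3.82 (2.75 to 5.10) for Ltc4s, 2.88 (2.65 to 3.12) for Ptgs2 and -1.19 (-1.34 to -1.03) for Alox5ap, and 6 of 8 members were past 2-fold, in a comparison where 52.8% of all genes were. Lta4h (1.02, interval -0.17 to 2.23) and Hpgds (2.33, interval 0.27 to 4.88, from 8 against 3 UMIs) were the other 2. The cluster's Ptgs1, Ltc4s and Hpgds stood at 307, 135 and 18.1 CPM, while microglia-like cells of that library had 241, 468 and 342. Microglial RNA was not tested as their source. The platelet genes Ppbp, Gp1bb and Gp9 were at 0 in the cluster, and Pf4 was at 22.6 CPM beside 35.1 in T-like cells. Itga2b, another platelet gene, was at 4.51 CPM in the cluster, from 2 UMIs, beside 2.39 in granulocyte-like and 0 in T-like cells. Platelet RNA was not tested as a source either.

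Microglia-like cells of the brain had more Ptgs2 and less Ptgs1 and Hpgds at D3. Ptgs2 went from 39.5 (34.2 to 45.4) to 147 (139.6 to 154) CPM, a log2 ratio of 1.89 (1.68 to 2.12), and was the 1 of 8 measured members past 2-fold, where 14.1% of 12414 genes were. Ptgs1 went from 468 to 241 CPM (-0.96, interval -1.04 to -0.87) and Hpgds from 591 to 342 (-0.79, interval -0.86 to -0.72). Tbxas1 was -0.29 (-0.41 to -0.17), Ltc4s -0.28 (-0.34 to -0.21) and Alox5ap 0.24 (0.16 to 0.33), and the median of the 8 was -0.28 beside -0.18 over all genes.

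These differences moved with markers of infiltrating macrophages. The summed level of 14 such markers in microglia-like cells was 1223 CPM at S3 and 5519.9 at D3, with all 14 above 0 in both, while in T-like cells it was 115 and 1039.7. In a split made after seeing the data, cells with under 3 of the 14 markers detected were 83.8% of microglia-like cells at S3 and 40.1% at D3, and their Ptgs2 was 8.49 CPM at S3 and 9.36 at D3, a ratio of 0.14 (-0.79 to 1.03). Their Ptgs1 went from 554 to 491 CPM (-0.17, interval -0.29 to -0.06), Hpgds from 679 to 608 (-0.16, interval -0.26 to -0.06) and Ltc4s from 668 to 707 (0.08, interval -0.02 to 0.18). In cells with 3 markers or more, Ptgs2 went from 113 to 177 CPM (0.64, interval 0.41 to 0.88), Ptgs1 from 262 to 186 and Hpgds from 380.4 to 283. Deeper cells detect more markers, and the median UMIs per cell were 9330.5 and 7011 in the first set and 19598 and 24249 in the second. No measured member was past 2-fold in either set, and the share of all genes past 2-fold in these sets is not given. The dissociation list was at 26586 CPM at S3 and 14536 at D3, the 14 granulocyte markers were at 1308 and 3185, and the part of either was not tested.

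**Figure D3:**
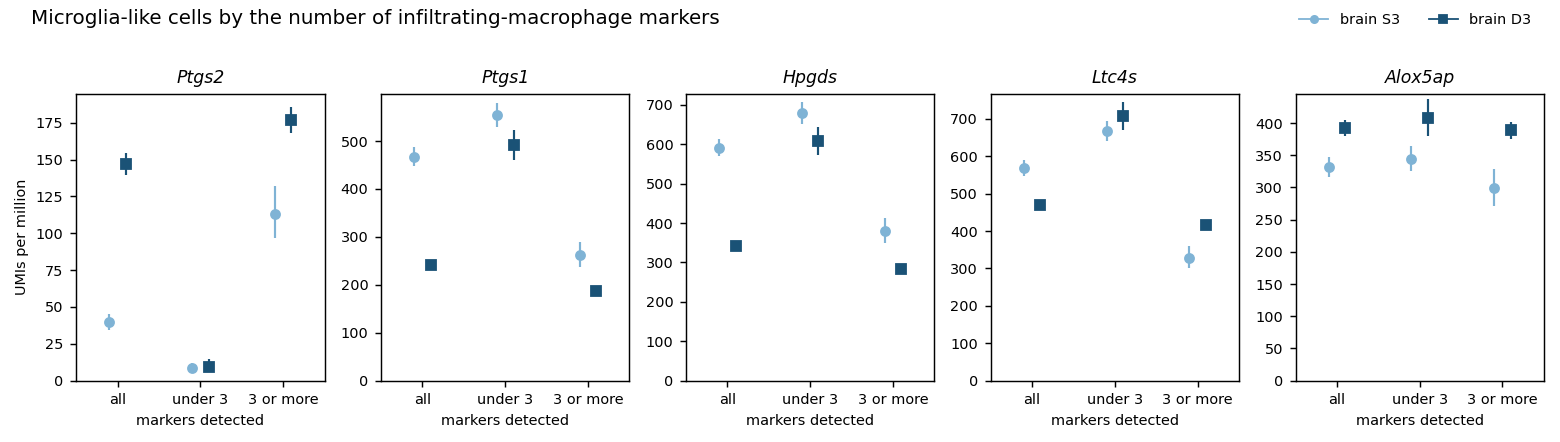
Level of 5 members in CPM in microglia-like cells of brain S3 and brain D3, in all of them and split by whether under 3 or 3 or more of 14 infiltrating-macrophage markers were detected, with bars for the 95% counting interval. Ptgs2 is near 9 in both libraries where under 3 markers were found, and Ptgs1 and Hpgds are higher there than in the other cells.

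Infiltrating macrophage-like cells, led by Gpnmb, Arg1 and Spp1, numbered 1378 in brain D3, 23 in dura mater D3, 6 in brain S3 and none in dura mater S3. They had 235 (229 to 240.0) CPM of Ptgs2, 629 (621 to 638) of Alox5ap and 117 (113 to 121) of Tbxas1, but 3.24 (2.64 to 3.92) of Alox5 and 40.2 (38.0 to 42.5) of Ltc4s. The macrophage-like cells of the sham brain, both Lyve1 classes together, had 174 (162 to 186), 512 (492 to 533), 126 (116 to 136), 41.4 (35.8 to 47.7) and 239.7 (226 to 254) CPM of the same genes. The log2 ratio was -3.68 (-4.04 to -3.33) for Alox5, -2.58 (-2.69 to -2.46) for Ltc4s, -1.44 (-1.54 to -1.34) for Hpgds and -0.73 (-0.88 to -0.58) for Ptgs1, while that of Ptgs2 was 0.43 (0.33 to 0.54) and that of Alox5ap 0.30 (0.24 to 0.36). Ptges had 42 UMIs against 0 and was 2.05-fold higher with the 0 set to a floor of 3 UMIs over the class. With 2500 cells drawn per library its log2 ratio was 0.51, which is under 2-fold. Of 9 members 4 were past 2-fold, 3 of them lower, where 29.4% of 12668 genes were, and the median was -0.10 beside -0.26. The 14 granulocyte markers summed to 1237 CPM in infiltrating macrophage-like cells, against 32926 and 1600.4 in the sham Lyve1+ and Lyve1- classes, and their part in the Alox5 ratio was not tested.

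Against the Ly6C hi monocyte-like cells of the same library, infiltrating macrophage-like cells had more of the macrophage members. The log2 ratio was 4.15 (3.54 to 4.85) for Hpgds, 2.68 (2.12 to 3.30) for Ltc4s, 2.23 (1.95 to 2.53) for Tbxas1 and 2.20 (1.81 to 2.63) for Ptgs1, and Alox5ap was lower, at -1.22 (-1.26 to -1.17). Ptges had 42 against 2 UMIs (1.45, interval -0.50 to 4.54), which makes 6 of 9 members past 2-fold against 23.8% of all genes. Ptgs2 had a ratio of 0.00 (-0.09 to 0.10), and Alox5 was near the bottom in both, at 3.24 and 3.15 CPM.

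**Figure D4:**
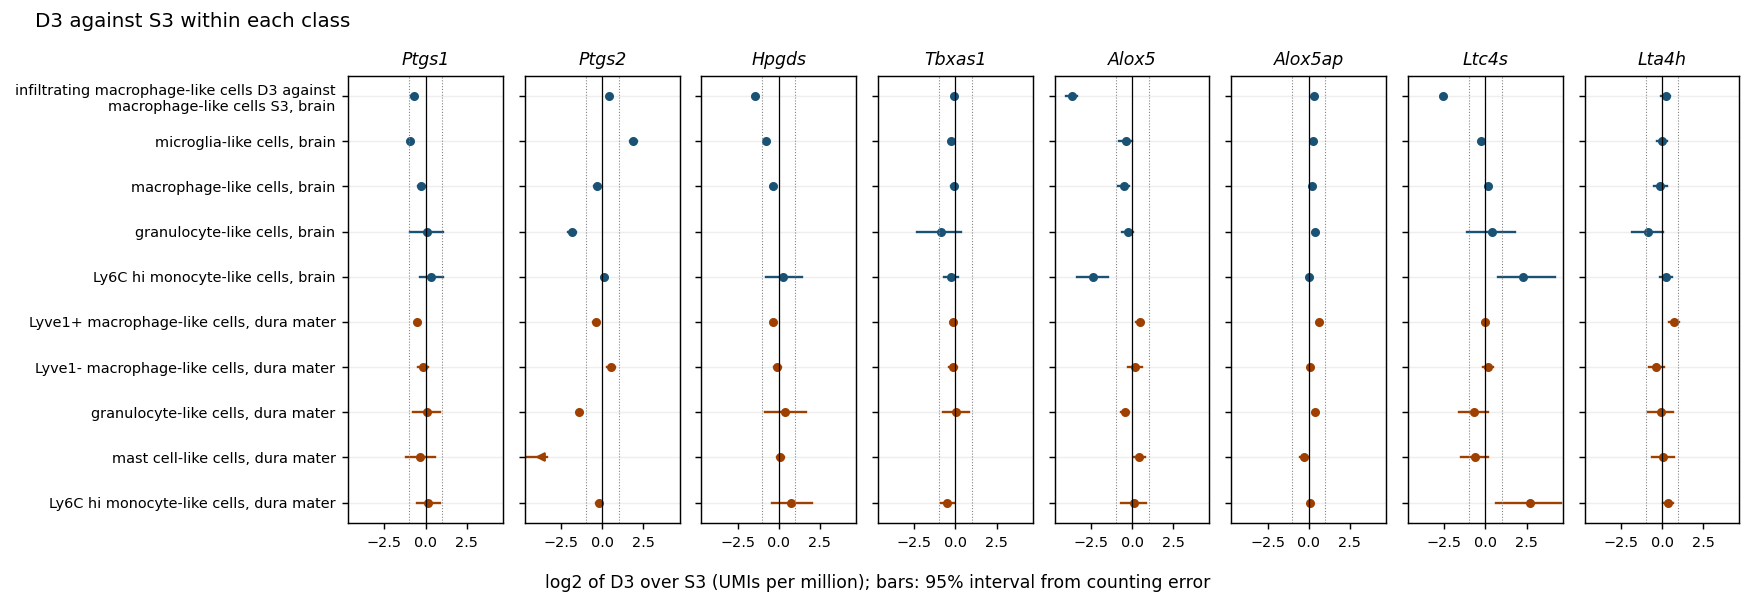
Log2 ratio of D3 over S3 for 8 members in 10 comparisons, with bars for the 95% counting interval, dotted lines at 2-fold, brain in blue and dura mater in brown, and a triangle for a bound. Members with under 10 UMIs have no point. Ptgs2 is left of the lower line in granulocyte-like and mast cell-like cells and right of the upper line in microglia-like cells, and most other points lie between the lines.

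In the clustered resident macrophage-like cells no member was past 2-fold. In the brain none of 8 measured members was past 2-fold between S3 and D3, where 6.34% of all genes were, and the ratios ran from -0.51 for Alox5 to 0.17 for Alox5ap and 0.17 for Ltc4s. In gated cells 4 members were past 2-fold, among them Alox5 (-2.14), Hpgds (-1.03) and Ltc4s, whose direction turned (-1.29), and Ptgs2 turned to 0.68. The share of all genes past 2-fold in gated cells is not given, so the 4 are not read as a result about the members. In Lyve1+ macrophage-like cells of the dura mater none of 8 was past 2-fold, where 7.62% were. Lta4h went from 26.3 (21.7 to 31.6) to 43.6 (39.4 to 48.2) CPM (0.73, interval 0.42 to 1.04), Alox5ap from 372 (354 to 390.5) to 581 (565 to 597) (0.64, interval 0.56 to 0.72) and Alox5 from 63.2 (55.9 to 71.2) to 86.4 (80.4 to 92.7) (0.45, interval 0.25 to 0.66), so the 3 leukotriene B4 enzymes were each higher at D3 with intervals off 0, although with cells gated one by one Lta4h was lower (-0.33) and Alox5 was at 0.06 with an interval that held 0. The 14 granulocyte markers moved with them in these cells, from 9199 to 25375 CPM with none at 0, granulocyte-like cells hold both Alox5 and Alox5ap, and the part of such RNA in these differences was not tested. Ptgs1 (-0.50, interval -0.66 to -0.34), Ptgs2 (-0.39, interval -0.58 to -0.19) and Hpgds (-0.38, interval -0.48 to -0.28) of the prostanoid branch were lower, except that Ptgs1 was at 0.08 in cells thinned to 2000 UMIs and Ptgs2 at 0.42 in gated cells and 0.17 with no filter on cells. Ltc4s was -0.02 (-0.11 to 0.06). A UMI of all 3 leukotriene B4 enzymes was found in 12.5% of these cells at S3 and 23.9% at D3, but thinned to 2000 UMIs per cell in 0.583% and 0.552%. In Lyve1- macrophage-like cells of the dura mater none of 8 was past 2-fold, against 5.83% of all genes, and the largest ratio was that of Ptgs2, at 0.55 (0.31 to 0.80) and, in gated cells, -0.05.

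Ly6C hi monocyte-like cells, the inflammatory blood monocytes, had 1 or 2 members past 2-fold. In the brain Alox5 was lower at D3, with 13 UMIs against 50 (-2.37, interval -3.37 to -1.46), and Ltc4s was higher, with 26 against 4 (2.28, interval 0.75 to 4.26), 2 of 8 members against 12.5% of all genes. In the dura mater Ltc4s alone of 9 was past 2-fold, with 16 against 2 UMIs (2.74, interval 0.65 to 5.90), where 7.4% were. Both Ltc4s levels at D3, 6.29 and 3.46 CPM, lay under those of T-like cells of the same libraries, 22.6 and 12.5, and free RNA was not tested as their source.

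Mast cell-like cells of the dura mater, which release histamine and prostaglandin D2 when activated, had Hpgds at 0.10 (-0.11 to 0.31), Alox5 at 0.43 (0.10 to 0.76) and Alox5ap at -0.32 (-0.56 to -0.07) on the log2 scale of D3 over S3. Ptgs2 was found with 35 UMIs at S3 and none at D3, which is 13.4-fold lower with the 0 set to a floor of 3 UMIs over the class. With doublets kept its log2 ratio was -2.31. It was the 1 of 7 measured members past 2-fold, where 9.79% of all genes were. The Ptgs2 UMIs at S3 came from 7 of 110 cells, and 1 cell held 18 of them. Mast cell-like cells had Ltc4s at 37.3 (25.7 to 52.4) CPM at S3 and 23.7 (15.2 to 35.3) at D3.

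The sham tissues differed in 1 member each. Between dura mater S3 and brain S3, macrophage-like cells had less Ptgs2 in the dura mater, 80.9 (74.3 to 88.0) against 174 (162 to 186) CPM (-1.10, interval -1.26 to -0.95), the 1 of 8 members past 2-fold, where 11.8% of all genes were. The ratio was under 2-fold at resolution 1.2 (-0.73), with all variable genes in the clustering (-0.98), in gated cells (-0.91) and with doublets kept (-0.65). The dissociation list of these cells was 21175 against 23928 CPM in the Lyve1+ and 17752 against 21947 in the Lyve1- class. The 14 granulocyte markers were at 9199 against 32926 CPM in the Lyve1+ and 789 against 1600.4 in the Lyve1- class, lower in the dura mater as Ptgs2 was, and the part of either list was not tested. Granulocyte-like cells of both tissues did not differ in Ptgs2 beyond counting error (0.04, interval -0.07 to 0.15). Ltc4s was the 1 of 8 past 2-fold, with 33 against 12 UMIs (1.35, interval 0.35 to 2.43), where 11.9% were, and it turned its direction under 5 of the other settings.

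The median log2 ratio of the measured members is given beside that of all measured genes. It was -0.18 beside -0.07 in macrophage-like cells of the brain, 0.18 beside -0.08 in brain Ly6C hi monocyte-like cells and 0.09 beside -0.04 in those of the dura mater. In the dura mater it was -0.09 beside -0.12 in the Lyve1+ class, -0.0026 beside -0.0014 in the Lyve1- class and -0.31 beside -0.06 in mast cell-like cells. Between the sham tissues it was 0.11 beside 0.18 in macrophage-like and 0.11 beside -0.03 in granulocyte-like cells. Among the class pairs it was 1.68 beside 0.85 for the Siglecf cluster over granulocyte-like cells and 1.45 beside 0.05 for infiltrating macrophage-like over Ly6C hi monocyte-like cells.

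Alox15 was hardly present. It had 40 UMIs in 20 of 14058 kept cells and was at 0 in 72 of the 80 classes. By library there were 7 UMIs in brain S3, 8 in brain D3, 22 in dura mater S3 and 3 in dura mater D3. Of the 20 cells, 9 carried at least 4 of 9 basophil markers and held 28 of the 40 UMIs, in a data set where 204 of the 14058 cells carried as many. Ms4a2, Fcer1a and Gata2 stand on both the basophil and the mast cell list, so this count does not tell basophils from mast cells. Proliferating-like cells of dura mater S3 had 15 UMIs in 6 cells, and microglia-like cells of brain D3 had 6 UMIs in 5 cells.

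Of 58 other genes of the pathway, from a list that was drawn up with earlier results of these data known, 52 were listed in the files. In infiltrating macrophage-like cells of brain D3 against sham macrophage-like cells, 7 of 38 measured were past 2-fold higher and 13 lower, where 29.4% of all genes were past it either way. In microglia-like cells 6 of 33 were higher and 4 lower (14.1% of all genes), and in Lyve1+ macrophage-like cells of the dura mater 5 of 35 were higher and none lower (7.62%). Granulocyte-like cells had 6 higher and 2 lower of 22 in the brain (15.4%) and 3 higher and 5 lower of 27 in the dura mater (16.6%). The counts were 1 higher and 2 lower of 34 in brain macrophage-like cells (6.34%), 1 and 1 of 32 in the Lyve1- class of the dura mater (5.83%), 6 and 3 of 27 in brain Ly6C hi monocyte-like cells (12.5%), 6 and 1 of 30 in those of the dura mater (7.4%), and 1 and 5 of 18 in mast cell-like cells (9.79%). Between the sham tissues they were 2 and 2 of 34 in macrophage-like cells (11.8%) and 9 and 0 of 24 in granulocyte-like cells (11.9%).

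Among the genes that release or hydrolyse lipids, Pla2g7, which encodes the platelet-activating factor acetylhydrolase of plasma, was highest in infiltrating macrophage-like cells, with 683 (674 to 692) CPM (1.65, interval 1.56 to 1.74 against sham macrophage-like cells). Pla2g2d, a secreted phospholipase A2, was highest in Lyve1+ macrophage-like cells, with 329 CPM at S3 and 186 at D3 in the dura mater (-0.82, interval -0.93 to -0.72). Daglb, a diacylglycerol lipase, was at 291 CPM at S3 and 205 at D3 in microglia-like cells, and Pla2g15, a lysosomal phospholipase, at 259 and 155. The other prostanoid synthases were less selective, with Ptges3 at 203 CPM in gamma-delta T-like cells of dura mater D3 and Akr1b3 at 163 in Lyve1+ macrophage-like cells of dura mater S3, and Ptgds, the lipocalin-type prostaglandin D2 synthase, reached 93.6 in Lyve1+ macrophage-like cells of brain S3. Mgst2, a microsomal glutathione transferase that can also make leukotriene C4, followed Lta4h in granulocyte precursor-like cells, with 279.8 CPM in dura mater S3.

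Of the genes that break eicosanoids down, Hpgd and Cyp4f18 had the highest levels. Hpgd, which inactivates prostaglandins, was at 602 (565 to 641) CPM in Lyve1+ macrophage-like cells of brain S3 and at 454 (436 to 473) in microglia-like cells, where it was 182 (174 to 190.0) at D3 (-1.32, interval -1.41 to -1.23). Infiltrating macrophage-like cells had 14.3 CPM of it (-4.87, interval -5.02 to -4.73 against sham macrophage-like cells). Cyp4f18, a hydroxylase of leukotriene B4 in mouse neutrophils, was at 767 at S3 and 689.8 at D3 in the brain and 745 at S3 and 599 at D3 in the dura mater in granulocyte-like cells.

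The receptors lay partly in other classes. Ltb4r1, the high-affinity receptor of leukotriene B4, was at 409 to 512 CPM in immature granulocyte-like cells over the 4 libraries, and gamma-delta T-like cells had 414 in dura mater D3 and 444 in brain D3. Cysltr1, a receptor for cysteinyl leukotrienes, was at 115 to 182 CPM in type 2 innate lymphoid cell-like (ILC2-like) cells, and Ptgir, the prostacyclin receptor, at 121 to 144. Ptger3 reached 73.4 and 80.0 CPM in mast cell-like cells, and Ptger4, like Ptger3 a receptor of prostaglandin E2, reached 207 in cDC2-like cells of brain S3. Fpr2, a receptor that lipoxin A4 can bind, was at 297 to 367 CPM in immature granulocyte-like cells.

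The genes most like each member over the 80 classes, by Pearson's r of log2(CPM + 1), are given as a description, since classes share libraries and depth. They were Nfam1 (0.94), Cd300a (0.90) and Pirb (0.89) for Alox5ap, Fcrls (0.91), C1qa (0.89) and C1qc (0.89) for Ltc4s, and Trf (0.90), Csf1r (0.89) and Aif1 (0.88) for Tbxas1. For Ptgs1 they were Cd63 (0.78), Pla2g4a (0.77), the cytosolic phospholipase A2, and Mtus1 (0.76). For Ptgs2 they were Tnfaip2 (0.77), Nlrp3 (0.76) and Il1b (0.76). For Hpgds they were Rnf180 (0.85), Snx24 (0.84) and B3galnt1 (0.83), for Alox5 Lilr4b (0.84), Pilrb2 (0.82) and F630028O10Rik (0.82), and for Lta4h Orm1 (0.78), Fcnb (0.77) and Mogat2 (0.77). Ptges, with 206 UMIs over these classes, had Prom1 (0.85), Tinagl1 (0.75) and Mpzl1 (0.73), and Alox15 had too few UMIs to be ranked.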

How the data were processed

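The 4 libraries (10x 3' v3) were mapped by the authors with Cell Ranger 3.1.0 to mm10 and normalized with Seurat 3.1.0, and each deposited value is ln(1 + x), a natural log in which x is a gene's UMIs per 10000 UMIs of its cell. UMI counts were expected. They were recovered from the deposited natural log values, all of which gave whole numbers within 1e-06, and a gene not listed was set to 0. With 1 library per condition there is no count test. The 10 members, the 30 marker lists and the 68 pathway genes were chosen with earlier results of these data known.

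Cells with more than 7% mitochondrial UMIs, 1000 genes or fewer or 6000 or more were left out, as in the study. Scrublet's automatic threshold marked under 0.5% of barcodes, so the highest doublet scores were removed instead, 0.8% per 1000 barcodes. Cells were clustered with Seurat 5.3.0 in R 4.3.3 (2500 variable genes less 26 pathway genes, 30 components, resolution 0.6) and named from the fixed markers by thresholds set after seeing the data. Clusters with markers of 2 lineages stayed unnamed. UMIs were summed by class and library in Python 3.11.15 (scipy 1.17.1), with exact Poisson intervals for levels and ratios and Clopper-Pearson intervals for shares, at 95%. A ratio needed 10 UMIs in the 2 groups together, a class needed 20 cells, and a group at 0 was set to 3 UMIs. A ratio with such a group is a convention and not a limit of the counting interval. Shares were also taken in cells thinned to 2000 UMIs. All members are named, and other pathway genes were eligible at 50 CPM in a class or past 2-fold, at most 4 per list. The scripts were tested on simulated counts. Since UMIs come from transcript ends and no lengths were used, levels are compared within a gene only.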

Additional observations from a re-analysis of the deposited data

Results flagged for a closer look

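The following members went opposite ways between S3 and D3 in the brain and the dura mater, with counting intervals off 0 in both tissues, and the difference between the tissues was not tested, since each library stands alone. They were picked out of all members and shared classes, and the share of all genes that went opposite ways is not given. Lta4h in immature granulocyte-like cells was 194 CPM at S3 and 251 at D3 in the brain, a log2 ratio of 0.37, and 358 and 297 CPM in the dura mater, a ratio of -0.27. The median ratio over all measured genes of these cells was -0.08 in the brain and -0.20 in the dura mater, the latter near that of Lta4h. Alox5 in Lyve1+ macrophage-like cells was 72.8 and 42.9 CPM in the brain, a ratio of -0.76, and 63.2 and 86.4 CPM in the dura mater, a ratio of 0.45. In the same cells the 14 granulocyte markers moved in the same directions, from 32926 to 22943 CPM in the brain and from 9199 to 25375 in the dura mater, granulocyte-like cells have 146 to 219.5 CPM of Alox5, and their part was not tested. Tbxas1 in cDC2-like cells was 38.0 and 58.1 CPM in the brain, a ratio of 0.61, and 67.4 and 37.8 CPM in the dura mater, a ratio of -0.84. Ptgs2 in plasmacytoid dendritic cell-like (pDC-like) cells had no UMI in the 22 cells of brain S3 and 21 UMIs in the 29 cells of brain D3, a log2 ratio of 2.38 with the 0 set to a floor of 3 UMIs over the class, and 22 UMIs in the 41 cells of dura mater S3 and 2 in the 25 of dura mater D3, a ratio of -3.01.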

How the results depend on the processing

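No paired analysis was possible because each condition had 1 library and no replicate numbers, and for the same reason no library could be left out. Of 1163 values of a member in a comparison under another setting, 96 came from the setting with no minimum of UMIs. That setting leaves the ratios as they are, so these 96 could not move. In all, 937 lay within the counting interval of the reported value, these 96 among them, 221 moved past it and 5 turned a called direction. All 5 were Ltc4s in granulocyte-like cells of dura mater S3 against brain S3 (reported 1.35), at -0.0725 with all variable genes in the clustering, -0.41 with cells gated one by one, -0.61 with no filter on cells, -0.0846 with doublets kept and -0.0517 with cells thinned to 2000 UMIs. The number of pairs of a member and a named class of an S3 library at 50 CPM or more ran from 79 to 95 around 88. The Lyve1- class of the dura mater could not be formed at resolution 0.3. Gating gave the same name to 72.8% of 13506 cells. Counts of members past 2-fold that moved by over 1.5 times were the following, and the share of all genes past 2-fold under these settings is not given. Macrophage-like cells of dura mater S3 against brain S3 had 0 at resolution 1.2, with all variable genes, gated and with doublets kept, and 2 thinned. Granulocyte-like cells of the same libraries had 0 at resolution 1.2, with all variable genes, with no filter, with doublets kept, thinned and with cells weighted alike, and 2 with 2500 cells drawn per library. Granulocyte-like cells of the brain had 2 with no filter, with 2500 cells drawn, thinned, weighted alike and with the T-like and B-like level subtracted, and, in an alternative chosen after seeing the data, 3 with the Siglecf cluster included. Those of the dura mater had 2 with all variable genes, gated and with subtraction, and 3 thinned. Macrophage-like cells of the brain had 4 gated and 1 with doublets kept and with no minimum of UMIs. Microglia-like cells had 2 with no filter and with subtraction and 0, chosen after seeing the data, in cells with under 3 infiltrating-macrophage markers. Mast cell-like cells had 2 with doublets kept, thinned and with subtraction. Lyve1+ macrophage-like cells of the dura mater had 1 with doublets kept and with subtraction, and the Lyve1- class had 2 thinned. Ly6C hi monocyte-like cells had 1 thinned and 4 with no minimum in the brain, and 2 with 2500 cells drawn, 2 weighted alike and 0 thinned in the dura mater. The cause of these moves was not tested. The log2 ratio of Ptgs2 kept its sign under every setting run in microglia-like cells (0.14 to 2.90), in granulocyte-like cells of the brain (-2.12 to -0.16) and the dura mater (-1.69 to -1.01), in mast cell-like cells (-4.09 to -2.31) and in macrophage-like cells of dura mater S3 against brain S3 (-1.44 to -0.65), and it turned in macrophage-like cells of the brain (-0.96 to 0.68). The 0.14 came from microglia-like cells with under 3 infiltrating-macrophage markers, and its interval of -0.79 to 1.03 held 0, so no direction is read there. In infiltrating macrophage-like cells Hpgds (-1.68 to -1.31), Alox5 (-4.05 to -2.83) and Ltc4s (-3.49 to -2.37) stayed lower than in sham macrophage-like cells. Members with a few UMIs in a class are limited by depth.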

Other observations

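The cells removed by the filters held more of the Alox15 molecules than those kept. Alox15, the lipoxygenase of eosinophils and some resident macrophages, had 115 UMIs in 23 of 4911 removed cells, 69 of them in a single cell, beside 40 UMIs in 20 of 14058 kept cells. By library the removed cells had 3 UMIs in brain S3, 84 in brain D3, 17 in dura mater S3 and 11 in dura mater D3. Of the 23 removed cells with Alox15, 7 carried at least 4 of 9 basophil markers, some of which are also mast cell markers, and held 28 of the 115 UMIs, where 65 of all 4911 removed cells carried as many.

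Ptgs2 in B-like cells of brain D3 was at 38.0 CPM, from 14 UMIs of which 11 were in 1 cell, against 2.14 CPM in brain S3.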
